A study of Homo sapiens with 6 samples.

Results

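The histone genes of HCT116 cells were followed through p53 activation in RNA-seq counts. HCT116 is a human colorectal carcinoma line with wild-type p53, and the 3 conditions were cells given the drug vehicle DMSO (Nut 0h) and cells given 10 µM Nutlin-3a, an inhibitor that frees p53 from its negative regulator HDM2, for 1 h (Nut 1h) or 10 h (Nut 10h), with 2 biological replicates each. All 6 libraries come from this 1 line, and p-values therefore measure the spread between cultures of it. Members were the rows of the count matrix whose symbol starts with HIST1H, HIST2H, HIST3H, HIST4H, H2AF, H3F3 or H1F, without symbols that end as pseudogenes. This gave 92 of 57905 rows, of which 75 were cluster genes (6 H1, 17 H2A, 23 H2B, 14 H3 and 15 H4), 16 were variant genes (4 H1, 9 H2A and 3 H3) and 1 was the antisense RNA H1FX-AS1. Total counts lay between 26068076 and 35473485 per library. The epithelial markers EPCAM, CDH1, KRT8, KRT18 and KRT19 summed to between 3504 and 7268 CPM (counts scaled to a library total of 1000000), all 5 present in every library. The endothelial markers CDH5 and VWF summed to between 0.378 and 0.658 CPM, and of the fibroblast markers DCN stayed at 0 counts while COL1A1 carried nearly all of a sum of 23.8 to 42.2 CPM.

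DNA in the nucleus is wound on octamers of the core histones H2A, H2B, H3 and H4, and linker histone H1 sits where the DNA enters and leaves them. Cluster genes are replication-dependent: they lie in groups, lack introns for the most part, and are transcribed in S phase, when new chromatin is built. Their mRNAs are the ones in animal cells that end in a conserved stem-loop in place of a poly(A) tail, and the stem-loop binding protein SLBP holds them through processing and translation. Most variant genes stand alone in the genome, give mRNAs with a poly(A) tail, and are expressed throughout the cell cycle, so that their proteins can replace the S-phase histones.

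The stem-loop sets most cluster mRNAs apart, and representative copies are shown here from the GRCh37 genome, 5′ to 3′, with the loop in capitals between the arms of the stem.
HIST1H1C (chr6:26055972-26055987, minus strand): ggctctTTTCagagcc
HIST1H2BK (chr6:27114145-27114160, minus strand): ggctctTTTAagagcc
HIST2H2AC (chr1:149858941-149858956, plus strand): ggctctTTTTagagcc
HIST1H4C (chr6:26104545-26104560, plus strand): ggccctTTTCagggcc
H2AFX (chr11:118965608-118965623, minus strand): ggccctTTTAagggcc
A script searched the 150 bases after each stop codon for 6-base arms that start with GG and pair with each other across a 4-base loop that starts with TT. Of 65 coding cluster members with a gene model, 61 had one, between 22 and 67 bases after the stop codon (median 36). All 13 H4 stem-loops had the arm ggccct, whereas the other 48 had the arm ggctct. HIST1H2AG, HIST1H2AK, HIST1H3E and HIST1H4L had no match. Of 16 coding variant members, H2AFX alone had a stem-loop in this window, and its arms were those of the H4 genes.

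Upstream sequences also differed between both kinds of gene. The 250 bases before the annotated start are given for the cluster gene with most counts and for 3 of the H2A variants described below. They come from RefSeq on GRCh38.p14, with any searched motif in capitals.
HIST1H2BK (chr6:27146856-27147105, minus strand): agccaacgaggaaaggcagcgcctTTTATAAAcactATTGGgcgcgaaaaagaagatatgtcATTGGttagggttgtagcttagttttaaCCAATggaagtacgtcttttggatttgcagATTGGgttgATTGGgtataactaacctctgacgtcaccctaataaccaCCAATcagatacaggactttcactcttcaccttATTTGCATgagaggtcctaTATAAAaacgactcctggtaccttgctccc
H2AFX (chr11:119095466-119095715, minus strand): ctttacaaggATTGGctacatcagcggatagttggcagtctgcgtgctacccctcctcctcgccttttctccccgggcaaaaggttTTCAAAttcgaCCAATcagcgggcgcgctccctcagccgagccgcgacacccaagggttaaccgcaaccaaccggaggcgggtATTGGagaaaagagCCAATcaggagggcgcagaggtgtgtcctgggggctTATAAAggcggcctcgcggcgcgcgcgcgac
H2AFZ (chr4:99950276-99950525, minus strand): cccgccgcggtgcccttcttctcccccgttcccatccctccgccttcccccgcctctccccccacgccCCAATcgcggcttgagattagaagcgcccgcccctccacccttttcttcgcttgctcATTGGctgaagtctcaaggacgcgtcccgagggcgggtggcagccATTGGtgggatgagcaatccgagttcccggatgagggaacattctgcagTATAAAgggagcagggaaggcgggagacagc
H2AFV (chr7:44848088-44848337, minus strand): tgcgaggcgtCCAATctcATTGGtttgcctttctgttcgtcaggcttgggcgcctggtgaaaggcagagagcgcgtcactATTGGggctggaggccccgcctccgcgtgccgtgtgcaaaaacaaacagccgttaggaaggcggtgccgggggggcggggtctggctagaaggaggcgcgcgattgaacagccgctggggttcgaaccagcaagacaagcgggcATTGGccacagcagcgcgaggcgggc
The capitals mark the octamer ATTTGCAT bound by OCT1, the CCAAT box, the TATA letters TATAAA, the H1 box AAACACA, the cell cycle homology core TTTGAA, and the E2F-type letters TTTGGCGC or TTTCCCGC, on either strand, where neighbouring matches may overlap. RefSeq held promoters, from 250 bases before to 50 after the start, for 61 cluster and 14 variant members. The octamer stood in 35.4% of 65 cluster promoters, 5.26% of 19 variant promoters and 1.77% of all 35116 promoters. It was found in 68.8% of the H2A and 68.8% of the H2B promoters, in 7.14% of H3 and in none of the 6 H1 or 13 H4 promoters. These shares are not independent. Some H2A and H2B genes, such as HIST1H2AC and HIST1H2BC, have promoters that share bases on opposite strands, and 1 match then counts for both. The only H3 match is in a promoter of HIST1H3D that is also the promoter of the H2A gene HIST1H2AD. CCAAT was present in 84.6% of cluster, 73.7% of variant and 34.6% of all promoters, and was missing mainly from H4, where 23.1% held it. All 6 cluster H1 promoters held AAACACA, against 5.64% of all promoters. TATAAA occurred in 67.7% of cluster, 21.1% of variant and 11.5% of all promoters, and TTTGAA in 36.9%, 10.5% and 15.2%. TTTGGCGC was in no member promoter and in 0.652% of all, and TTTCCCGC was in 1 cluster H4 promoter and 1.63% of all. Within the 250 bases printed here, H2AFX holds the CCAAT box along with TTTGAA and the TATA letters, H2AFZ holds the CCAAT box and the TATA letters (its TTTGAA match lies outside these bases, in the wider window), and H2AFV holds the CCAAT box and none of the other letters searched. These are matches of letters and not sites of binding.

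Nearly all histone reads came from variant genes. Over the 6 libraries, the 16 variant members held 560738 counts and the 75 cluster members 6997, a ratio of 80.1 that ranged from 67.4 to 94.5 between libraries. Of the cluster members, 17 had 0 counts in all 6 libraries, which allows at most 0.0151 CPM for each over the 198363403 counts together (3 counts, counting error only), and 37 had fewer than 10 counts. Among those at 0, HIST2H2BA and HIST3H2BA are annotated as pseudogenes. HIST2H2BB has no annotation here but carries the current symbol H2BP2, of the same form as H2BP1 for HIST2H2BA. The coding region of HIST2H3A is identical to that of HIST2H3C, so its reads may be counted elsewhere or not at all, and the limit may not hold for it. HIST1H2BI, HIST1H4F and HIST2H2BB have no gene model here and were not compared with other genes, so the limit may not hold for them either. HIST1H2BK, HIST3H2A and HIST1H1C took 53.6% of the cluster counts. A filter on low counts left 32 members, made of 20 cluster genes, 11 variant genes and H1FX-AS1. Of these 32, 6 passed it only with the condition in which they were highest (H1FX-AS1, H3F3C, HIST1H2AI, HIST1H3D, HIST1H3E and HIST1H4C). A difference in such a gene is partly required by the filter, so their calls, made for H3F3C, HIST1H3E and HIST1H4C, are given as descriptions, and the numbers for tested genes do not describe all members. How the RNA was selected before sequencing is not given in the sources used here, and whether poly(A) selection plays a part in the low cluster counts was not tested. As a measured neighbour, 19 other RNAs that lack a poly(A) tail (among them RN7SL1, RN7SK, TERC and RMRP) summed to between 6.83 and 39.1 CPM, and 4 to 10 of them were at 0 in each library.

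**Figure D1:**
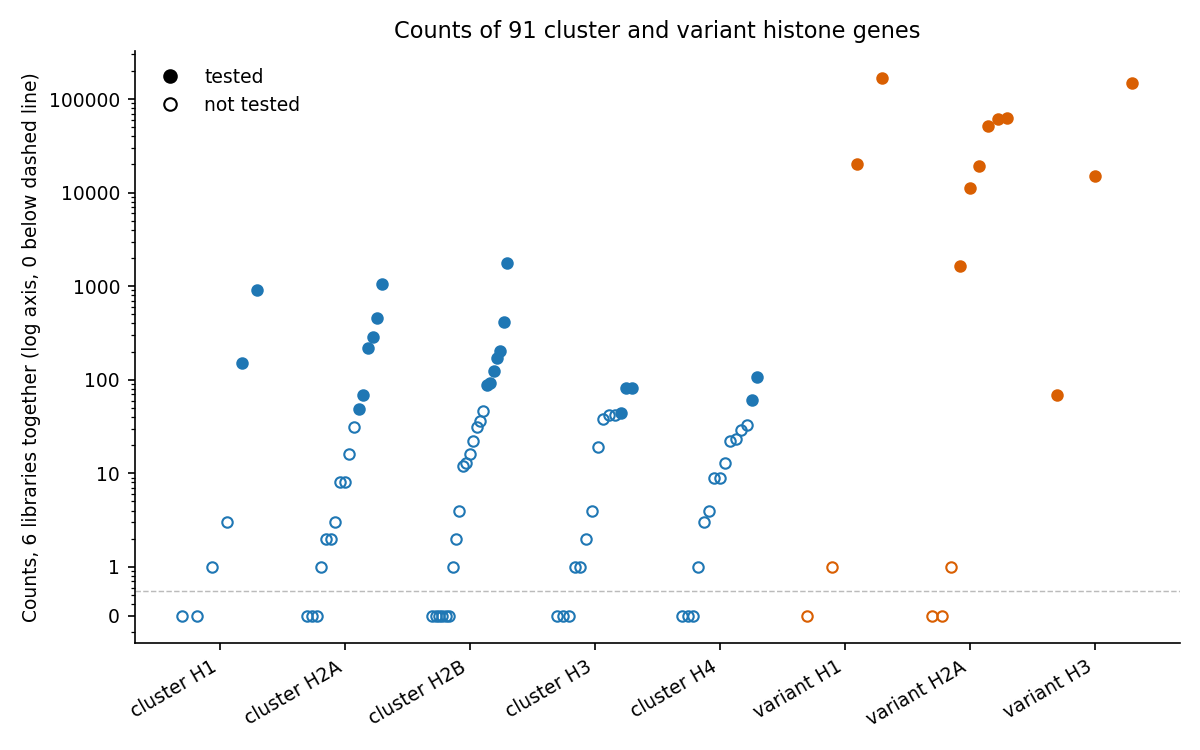
Counts summed over the 6 libraries (vertical, log axis, with 0 drawn below the dashed line) for the 91 cluster and variant genes, by class. Filled points are genes that passed the low-count filter. The cluster genes end at 1780 counts (HIST1H2BK), whereas the variants reach 169503 (H1F0).

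Where the annotation runs past the stem-loop, cluster genes carried more counts. In the GRCh37 annotation used here, 16 cluster genes with a stem-loop had a transcript ending more than 100 bases beyond it, of which 7 were tested. The median total of the 16 was 38.5 counts over 6 libraries. The 45 others ended within 11 bases of the stem-loop, with 9 tested and a median total of 8 counts. HIST1H2BK and HIST1H1C belong to the second set, and both are among the 3 cluster genes with most counts. These totals are not scaled by length, and genes annotated past the stem-loop can be far longer. HIST1H2BN, for example, has 4137 bases and HIST1H2BK 495. The annotation of the deposited counts may draw these ends differently, and the comparison is given without a test.

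Per length, H1F0 stood highest with vehicle. On the scale of CPM per kilobase of the longest annotated transcript, its 2 libraries were at 418 and 380, followed by H2AFX at 374 and 314, H3F3B at 259 and 266, H2AFZ at 179 and 189, and H1FX at 127 and 96.5. The libraries of neighbouring genes in this order did not overlap, and H1F0 and H2AFX came closest, with 380 against 374. H3F3A was at 35 and 38.3, H2AFY at 25 and 24.1, H2AFV at 21.3 and 21.2, and H2AFY2 at 17.5 and 16. HIST1H2BK, at 19.1 and 19.8 CPM per kilobase, was the cluster gene with the highest level and fell among these lower variants. This order depends on the length used, which was 10982 bases for H2AFY, 1863 for H3F3A and 495 for HIST1H2BK. In total counts H2AFY, with 51238, stood above H3F3A, with 15115. Which transcripts the cells used was not tested. After 1 h H3F3B was first, with 357 and 362, and after 10 h H1F0 was first again, with 484 and 458.

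After 1 h of Nutlin-3a the variants split. With edgeR's quasi-likelihood test and a Benjamini-Hochberg threshold of 0.05, 5 variant genes rose (H2AFV, H2AFZ, H3F3A, H3F3B and H3F3C) and 5 fell (H1F0, H1FX, H2AFX, H2AFY2 and H2AFJ), while H2AFY did not pass. Among the 20 tested cluster genes 2 rose and 6 fell. In all, 7 of 32 members (21.9%) rose, against 34.5% of all 16565 tested genes, and 11 (34.4%) fell, against 32.3% of all tested genes. The share that fell was near the background and the share that rose was below it. These shares include H3F3C among the rises and HIST1H4C among the falls, which passed the filter only with their highest condition. The median log2 fold change was -0.65 for the tested cluster genes, -0.11 for the variants and 0.05 over all tested genes. After 1 h the fold change followed the GC content of genes (Pearson r = -0.69 across tested genes, which are not independent), and fits in which a loess trend of each library against GC content enters as an offset (the GC fit) are given beside the calls they change. In the GC fit 6 members rose and 10 fell, against 23.8% and 25.0% of all tested genes, and the medians were -0.29 for the tested cluster genes, -0.29 for the variants and 0.01 over all tested genes.

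After 10 h the changes that passed were decreases. In edgeR's test 6 variants (H1FX, H2AFV, H2AFX, H2AFY2, H2AFZ and H3F3B) and 2 cluster genes (HIST1H4C and HIST1H2BN) fell, 8 of 32 members (25%) against 14.9% of all tested genes. DESeq2 called 5 members lower. Without the second Nut 10h library H2AFY2, H3F3B, HIST1H2BN and HIST1H4C lost their calls. HIST1H4C passed the low-count filter only with its vehicle libraries, so its decrease adds no support to the share. H1FX-AS1, among the 32, passed in the same way. The share is therefore a description and is not read as a result about the members. No member was called higher, against 14.1% of all tested genes. At an unadjusted p under 0.05, 2 members (H1F0 and HIST1H3E) were higher, and DESeq2 called 0. Shares of all tested genes are not given for the unadjusted p or for DESeq2, so those numbers are not read against a background. By the GC fit H1F0 and HIST1H3E were called higher, against 18.5% of all tested genes, and the 8 decreases were all called again, against 20.5%. The median log2 fold change was -0.29 for the variants, -0.14 for the tested cluster genes and 0.00 over all tested genes.

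Between 1 h and 10 h, 6 members were higher after 10 h (H1F0, H1FX, HIST1H1C, HIST1H3E, HIST1H4C and HIST3H2A), against 34.2% of all tested genes, and 7 were lower (H2AFV, H2AFZ, H3F3A, H3F3B, HIST1H2AG, HIST1H2BC and HIST1H2BN), against 33.7%. The number of higher members was much larger without the second Nut 10h library, as given in the last section. In the GC fit 9 were higher and 7 lower, against 29.8% and 29.0% of all tested genes. Each of the 3 conditions enters a pair of these comparisons, which therefore share libraries. In bulk RNA, fewer cells of a kind, such as cells in S phase, and less RNA per cell cannot be told apart.

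**Figure D2:**
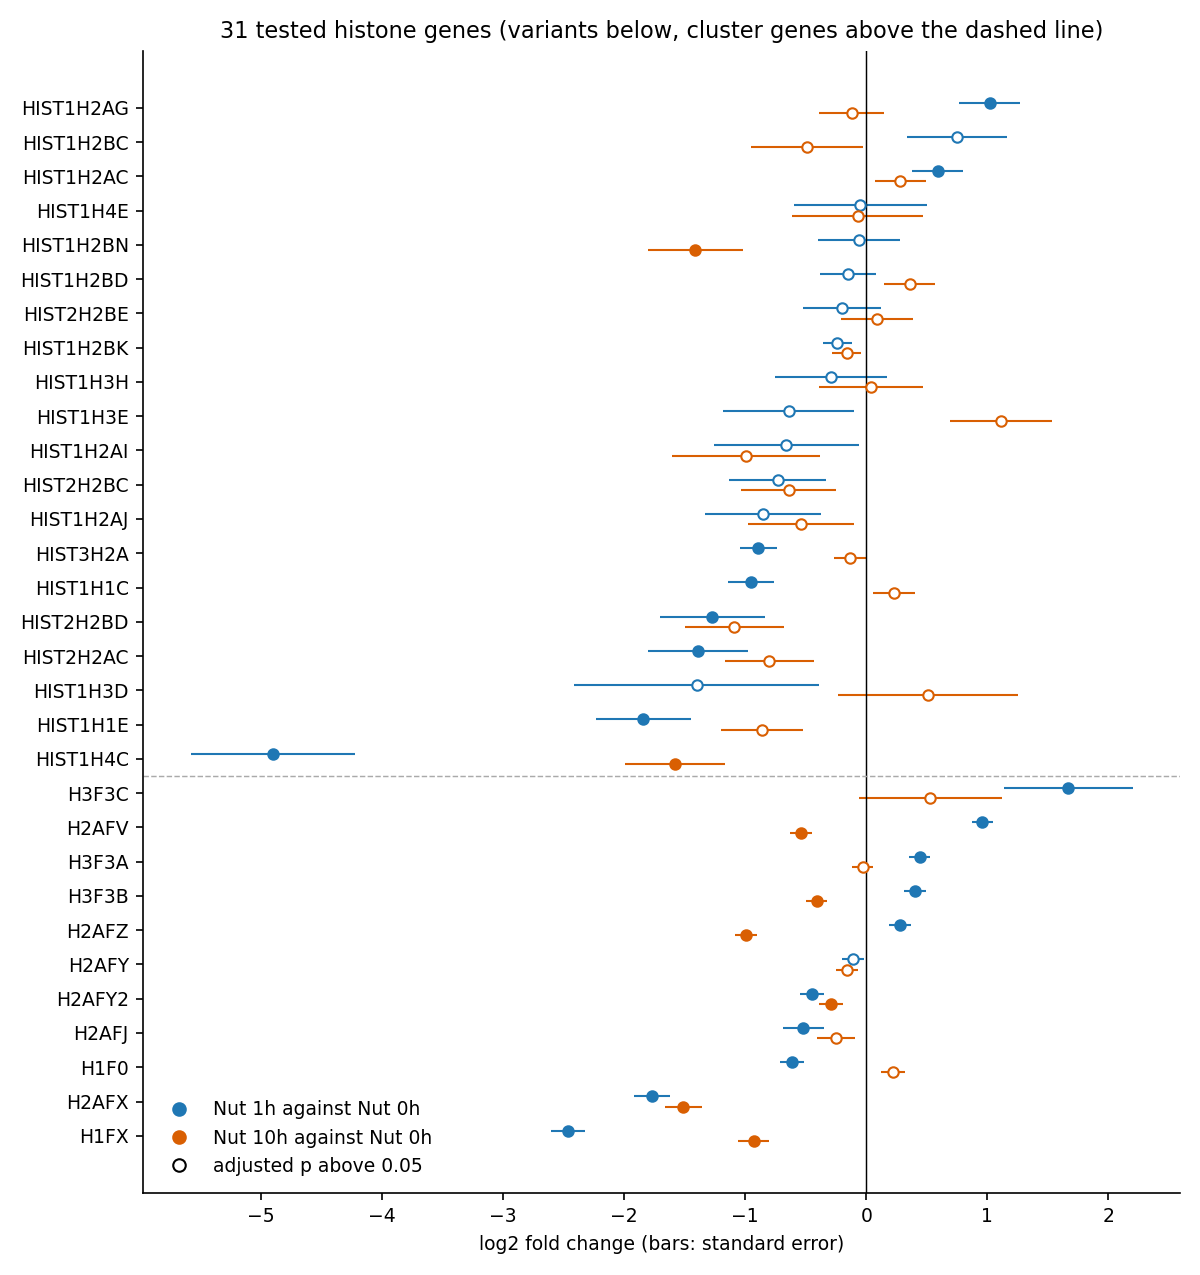
Log2 fold changes after 1 h (blue) and after 10 h (orange) against vehicle for the 31 tested cluster and variant genes (bars: standard error of the edgeR fit). Filled points passed an adjusted p of 0.05. H2AFV, H2AFZ and H3F3B are filled on both sides of 0, and H1FX, H2AFX and H2AFY2 are filled below 0 at both times.

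Both tested linker histone variants fell early and rose again between 1 h and 10 h. H1F0 (chr22:38201236-38203439 of GRCh37) encodes the replacement linker histone known for its accumulation in cells that stop dividing. It had 31601 and 27620 normalized counts with vehicle, 19441 and 19391 after 1 h, and 36052 and 32861 after 10 h. The Nut 1h libraries were the lowest, and no condition overlapped another. Its log2 fold change after 1 h was -0.61 (SE 0.10, edgeR adjusted p = 9.68e-05) and after 10 h 0.22 (SE 0.10, edgeR adjusted p = 0.117). From 1 h to 10 h it rose 1.77-fold (log2 0.83, SE 0.10, edgeR adjusted p = 5.52e-06). As a share of all variant counts, H1F0 made up 27.7% ± 0.656 with vehicle, 21.3% ± 0.52 after 1 h and 41.7% ± 0.347 after 10 h (SD, n = 2).

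H1FX (chr3:129033614-129035129), a linker histone variant from a single-exon gene, had 6613 and 4827 normalized counts with vehicle, 1043 and 1042 after 1 h, and 3232 and 2792 after 10 h. Again the Nut 1h libraries were the lowest, without overlap. It was 5.48-fold lower after 1 h (log2 -2.46, SE 0.14, edgeR adjusted p = 3.16e-08) and 1.90-fold lower after 10 h (log2 -0.93, SE 0.13, edgeR adjusted p = 9.98e-05). Its GC content is 68.6%, and in the GC fit the log2 fold change after 1 h was -1.20 and that between 1 h and 10 h went from 1.53 to 0.36, both still called. The antisense RNA H1FX-AS1, which overlaps H1FX, had 2 to 12 counts per library and passed in no comparison. The counting is not stated to use strand, and reads of such overlapping genes may not be told apart.

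Both genes of H2A.Z, the variant that marks nucleosomes beside active promoters, rose early and fell late. H2AFV (chr7:44866390-44887686) had 2774 and 2667 normalized counts with vehicle, 5352 and 5266 after 1 h, and 1826 and 1914 after 10 h. The conditions stood well apart. The log2 fold change was 0.96 after 1 h (SE 0.09, edgeR adjusted p = 7.36e-07) and -0.54 after 10 h (SE 0.09, edgeR adjusted p = 0.000412). From 1 h to 10 h it was -1.51 (SE 0.09, edgeR adjusted p = 7.87e-09), a 2.84-fold decrease. With a GC content of 43.1%, H2AFV kept 0.60 after 1 h in the GC fit.

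H2AFZ (chr4:100869243-100871512), the more abundant H2A.Z gene, had 11544 and 11755 normalized counts with vehicle, 14064 and 14239 after 1 h, and 6108 and 5619 after 10 h. Its levels ordered as those of H2AFV did, with a smaller difference from vehicle after 1 h and a larger one after 10 h. The increase after 1 h was 1.21-fold (log2 0.28, SE 0.09, edgeR adjusted p = 0.0132), and this call was lost when any 1 of the 4 libraries of the comparison was left out. The decrease after 10 h was 1.99-fold (log2 -0.99, SE 0.09, edgeR adjusted p = 1.57e-06) and kept its call in each of these fits. From 1 h to 10 h H2AFZ fell by 1.27 on the log2 scale (SE 0.09, edgeR adjusted p = 4.29e-08).

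Of the variants, H2AFX fell most after 10 h. The gene (chr11:118964584-118966175, single exon) encodes H2A.X, whose phosphorylated form marks DNA breaks, and it is the variant with the stem-loop shown above. It had 20419 and 16497 normalized counts with vehicle, 5073 and 5784 after 1 h, and 7572 and 5407 after 10 h. Both treated conditions lay below the vehicle and overlapped each other. The log2 fold change was -1.77 after 1 h (SE 0.15, edgeR adjusted p = 3.76e-07) and -1.51 after 10 h (SE 0.15, edgeR adjusted p = 2.92e-06), or 3.40-fold and 2.84-fold lower. From 1 h to 10 h the value was 0.26 (SE 0.15, edgeR adjusted p = 0.130). H2AFX has a GC content of 66.8%. By the GC fit its log2 fold change was -0.63 after 1 h and -1.45 after 10 h, and H2AFX was then called lower between 1 h and 10 h, at -0.82. The late decrease thus held its size in that fit whereas the early one did not. H2AFX went from 17.3% ± 1.37 of all variant counts with vehicle to 5.95% ± 0.417 after 1 h and 7.81% ± 1.28 after 10 h (SD, n = 2).

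The macroH2A genes, whose products carry a large globular domain and are found in silent chromatin, gave 1 gene that fell and 1 that did not pass. H2AFY had 9425 and 8739 normalized counts with vehicle, 8198 and 8635 after 1 h, and 8367 and 7903 after 10 h, and it passed in none of the comparisons. Its log2 fold change after 1 h was -0.11 (SE 0.09, edgeR adjusted p = 0.304), and in the GC fit it was -0.43 and called, as was the value of 0.26 between 1 h and 10 h. H2AFY2 had 2332 and 2045 normalized counts with vehicle, 1578 and 1627 after 1 h, and 1899 and 1692 after 10 h. It was 1.37-fold lower after 1 h (log2 -0.45, SE 0.10, edgeR adjusted p = 0.00137) and 1.22-fold lower after 10 h (log2 -0.29, SE 0.10, edgeR adjusted p = 0.0471). The late call was lost in DESeq2, with upper-quartile normalization, with only both conditions compared in the fit, and without the first Nut 0h library, the second Nut 10h library or either Nut 1h library. H2AFJ, an H2A variant known from senescent cells, had 358 and 288, then 210 and 240, then 314 and 230 normalized counts. It fell after 1 h (log2 -0.52, SE 0.17, edgeR adjusted p = 0.0129), a call lost without the first library of either condition and kept in the GC fit at -0.92, and after 10 h its log2 fold change was -0.25 (SE 0.16, edgeR adjusted p = 0.277). The GC fit also called H2AFJ higher after 10 h than after 1 h, at 0.67 in place of 0.28.

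H3F3A and H3F3B encode the same protein, H3.3, which is deposited independently of DNA replication. H3F3B (chr17:73772515-73781974) had 24715 and 24440 normalized counts with vehicle, 31688 and 33137 after 1 h, and 19197 and 17717 after 10 h. Nut 1h was the highest and Nut 10h the lowest, with no overlap. The log2 fold change was 0.40 after 1 h (SE 0.09, edgeR adjusted p = 0.00157) and -0.41 after 10 h (SE 0.09, edgeR adjusted p = 0.00394), and the late call was lost without the second Nut 10h library. H3F3A (chr1:226249552-226259720) had 2234 and 2357, then 3013 and 3218, then 2340 and 2152 normalized counts. It rose after 1 h (log2 0.44, SE 0.09, edgeR adjusted p = 0.000812), and its value after 10 h was -0.03 (SE 0.09, edgeR adjusted p = 0.835). H3F3A has the lowest GC content of the variants tested, 40.5%, and in the GC fit its log2 fold change was -0.07 after 1 h and 0.03 between 1 h and 10 h, neither called. Processed pseudogenes of H3F3A held 6885 counts beside the 15115 of H3F3A itself, and whether reads were split between them was not tested. H3F3C, a retrocopy of H3F3B known from testis, had 10 and 3 counts with vehicle, 22 and 14 after 1 h, and 10 and 9 after 10 h. It passed the low-count filter only with its libraries after 1 h, so it adds no support to the count of variants that rose. After 1 h its fitted log2 fold change was 1.67 (SE 0.53, edgeR adjusted p = 0.0124), a call lost when either Nut 1h library or the second Nut 0h library was left out and in DESeq2.

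**Figure D3:**
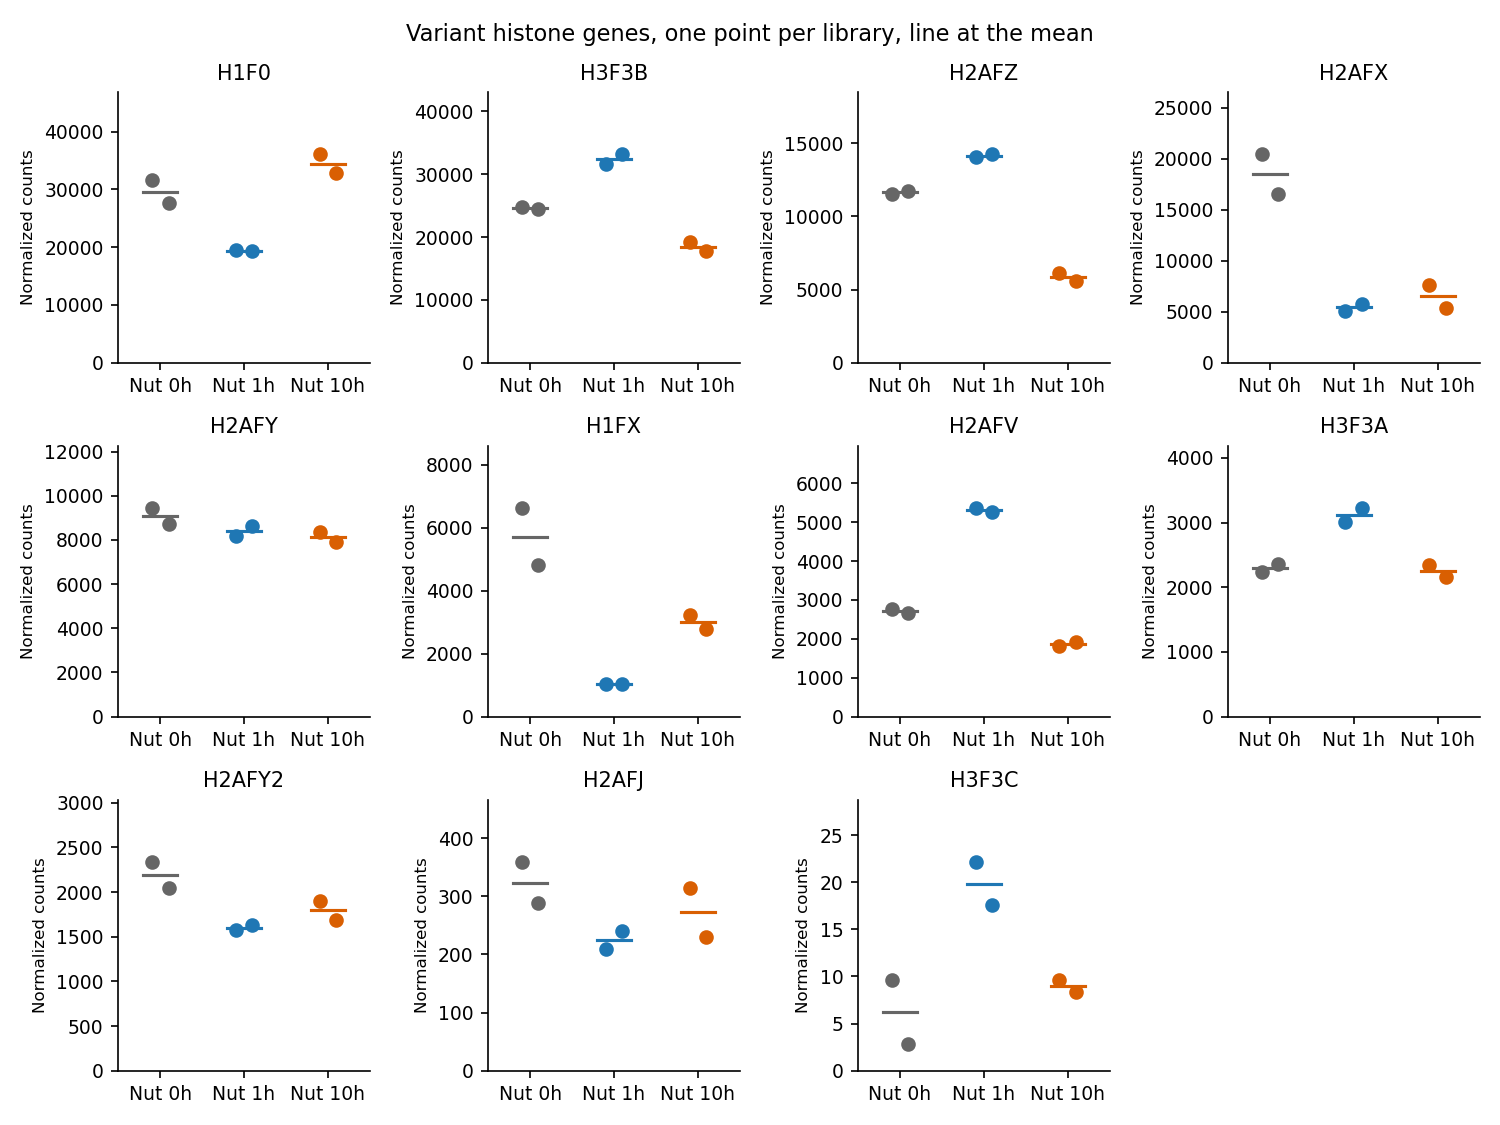
TMM-normalized counts of the 11 tested variant genes (vertical axes start at 0), with 1 point per library and a line at the mean of each condition. H1F0 and H1FX are lowest after 1 h, H2AFZ, H2AFV and H3F3B are highest after 1 h and lowest after 10 h, and H2AFX is high only with vehicle.

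Both tested linker genes of the clusters fell after 1 h. Cluster H1 genes summed to 6.96 and 5.24 CPM with vehicle, 2.74 and 3.26 after 1 h, and 6.60 and 6.41 after 10 h. HIST1H1C held most of the sum in every library: without it, the sums were 1.49 and 0.968 CPM with vehicle, 0.284 and 0.46 after 1 h, and 0.686 and 0.686 after 10 h, below both vehicle libraries. HIST1H1C, the H1 gene with most counts, had 187 and 141 normalized counts with vehicle, 78.3 and 91.9 after 1 h, and 200 and 186 after 10 h. It was 1.94-fold lower after 1 h (log2 -0.95, SE 0.19, edgeR adjusted p = 0.000474) and rose 2.28-fold between 1 h and 10 h (log2 1.19, SE 0.19, edgeR adjusted p = 5.93e-05). HIST1H1E had 49.3 and 31.9, then 9.03 and 13.8, then 23.2 and 21.4 normalized counts, and it fell after 1 h (log2 -1.84, SE 0.39, edgeR adjusted p = 0.000869). The GC fit left both called, at -0.52 for HIST1H1C and -1.14 for HIST1H1E after 1 h, and gave 0.76 for HIST1H1C between 1 h and 10 h.

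Cluster H4 genes summed to 1.86 and 2.73 CPM with vehicle, 1.10 and 1.27 after 1 h, and 1.26 and 1.12 after 10 h. The difference after 1 h came from 1 gene. In sums without the top gene of a class, added after seeing the data, H4 without HIST1H4C was at 1.04 and 1.34 CPM with vehicle, 1.07 and 1.23 after 1 h, and 0.772 and 0.858 after 10 h, so that vehicle and 1 h overlapped. HIST1H4C (chr6:26104161-26104565), the H4 gene with most counts, had 29 and 49 counts with vehicle, 1 and 1 after 1 h, and 17 and 9 after 10 h. No condition overlapped another. The gene passed the low-count filter only with its vehicle libraries, so its calls lower at both times are a description. Scaled by library size, the 78 counts of Nut 0h against the 2 of Nut 1h made a ratio of 33.3, with an exact 95% counting interval of 8.91 to 280. The 78 against 26 after 10 h made a ratio of 3.01 (1.91 to 4.89). The edgeR adjusted p was 2.24e-05 after 1 h and 0.0109 after 10 h, and the late call was lost in DESeq2, without the second Nut 0h library and without the second Nut 10h library. HIST1H4C lies within the annotated span of HIST1H2BC (chr6:26086545-26124154), on the other strand. Whether it meets an exon of HIST1H2BC was not examined, and if so its reads may count for either gene or neither. HIST1H4E had between 7 and 15 counts per library and did not pass in any comparison.

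H2A and H2B cluster genes were the bulk of the cluster counts. As ratios of the mean normalized sums over all genes of a class, theirs differed least between vehicle and 1 h (0.828 and 0.838). H2A summed to 12.3 and 11.9 CPM with vehicle, 10.3 and 10.6 after 1 h, and 10.9 and 10.7 after 10 h, and H2B to 16 and 17.2, then 14.6 and 14.4, then 14.6 and 15.3. Without HIST3H2A, the H2A gene with most counts, H2A summed to 5.81 and 5.72 CPM with vehicle and to 6.81 and 6.94 after 1 h, so that the order of both conditions turned. HIST1H2BK (chr6:27114140-27114634) had 324 and 324 normalized counts with vehicle, 261 and 287 after 1 h, and 292 and 288 after 10 h. It passed in no comparison, with a log2 fold change of -0.24 after 1 h (SE 0.12, edgeR adjusted p = 0.0913). In the GC fit it turned to 0.30 after 1 h and was called higher, and between 1 h and 10 h it was then called lower, at -0.45. HIST1H2BD had 58.9 and 69.5, then 63.2 and 51.6, then 87.0 and 78.2 normalized counts. It passed in no comparison, and in the GC fit it was called higher after 10 h than after 1 h, at 0.60.

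HIST3H2A (chr1:228622478-228645574) had 224 and 204 normalized counts with vehicle, 110 and 121 after 1 h, and 196 and 195 after 10 h, so that only Nut 1h stood apart widely. It was 1.85-fold lower after 1 h (log2 -0.89, SE 0.15, edgeR adjusted p = 0.000128) and rose 1.70-fold from there to 10 h (log2 0.76, SE 0.15, edgeR adjusted p = 0.000486). Both calls held in the GC fit, at -0.60 and 0.48. HIST1H2AC went the other way, with 62.8 and 60.1, then 99.3 and 84.3, then 73.5 and 75.4 normalized counts. Its rise after 1 h (log2 0.59, SE 0.21, edgeR adjusted p = 0.0214) was lost in the GC fit, in DESeq2, and without either Nut 0h library or the first Nut 1h library. HIST1H2AG, chosen after its values were seen as the other cluster gene that rose, had 33.8 and 41.3, then 70.2 and 83.1, then 31.9 and 37.2 normalized counts. It rose 2.03-fold after 1 h (log2 1.02, SE 0.25, edgeR adjusted p = 0.00253) and fell 2.20-fold between 1 h and 10 h (edgeR adjusted p = 0.00119). Its early value in the GC fit was 1.75. HIST1H2AG is 1 of the 4 coding cluster genes without a stem-loop match in the window searched.

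The remaining cluster genes with a call were low and were likewise chosen after their values were seen. HIST2H2AC had 59.9 and 49.8, then 14.0 and 28.9, then 44.5 and 18.6 normalized counts, and HIST2H2BD, annotated as a pseudogene, had 21.3 and 27.2, then 11.0 and 8.81, then 8.70 and 14.0. Both fell after 1 h (log2 -1.39 and -1.27), and neither was called in the GC fit or without the first Nut 1h library. HIST2H2BD was also not called in DESeq2 or without either the second Nut 0h or the second Nut 1h library. HIST1H2BN had 27.1 and 26.3, then 29.1 and 21.4, then 10.6 and 9.31 normalized counts. After 10 h it fell (log2 -1.41, SE 0.39, edgeR adjusted p = 0.0144), a call lost in DESeq2 and without the first Nut 0h or the second Nut 10h library. Against 1 h its value was -1.35, which lost its call in DESeq2, in the GC fit (-0.80), and without the first Nut 1h or the second Nut 10h library. HIST1H2BC, with 8 to 22 counts per library, was lower after 10 h than after 1 h (log2 -1.24), a call lost in DESeq2, without the second Nut 1h library and without the first Nut 10h library.

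Cluster H3 genes summed to 1.80 and 2.16 CPM with vehicle, 1.10 and 1.23 after 1 h, and 2.03 and 2.26 after 10 h. Without HIST1H3E they were 1.58 and 1.76, then 0.851 and 1.07, then 1.34 and 1.57, so that both libraries after 10 h then lay below both of vehicle. HIST1H3E had 7.73 and 13.1, then 8.03 and 5.03, then 23.2 and 22.3 normalized counts, and it was higher after 10 h than after 1 h (log2 1.75, SE 0.47, edgeR adjusted p = 0.00473), which was not called in DESeq2 or without the second Nut 1h library. It passed the filter only with its libraries after 10 h, so this call is a description too. HIST1H3H, with 8 to 20 counts per library, passed in no comparison. The untested H3 and H4 genes had at most 42 counts each over the 6 libraries and are given no comparison. With 2 libraries per condition an exact permutation test of a class sum cannot give a two-sided p under 0.333, so the sums carry no test.

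**Figure D4:**
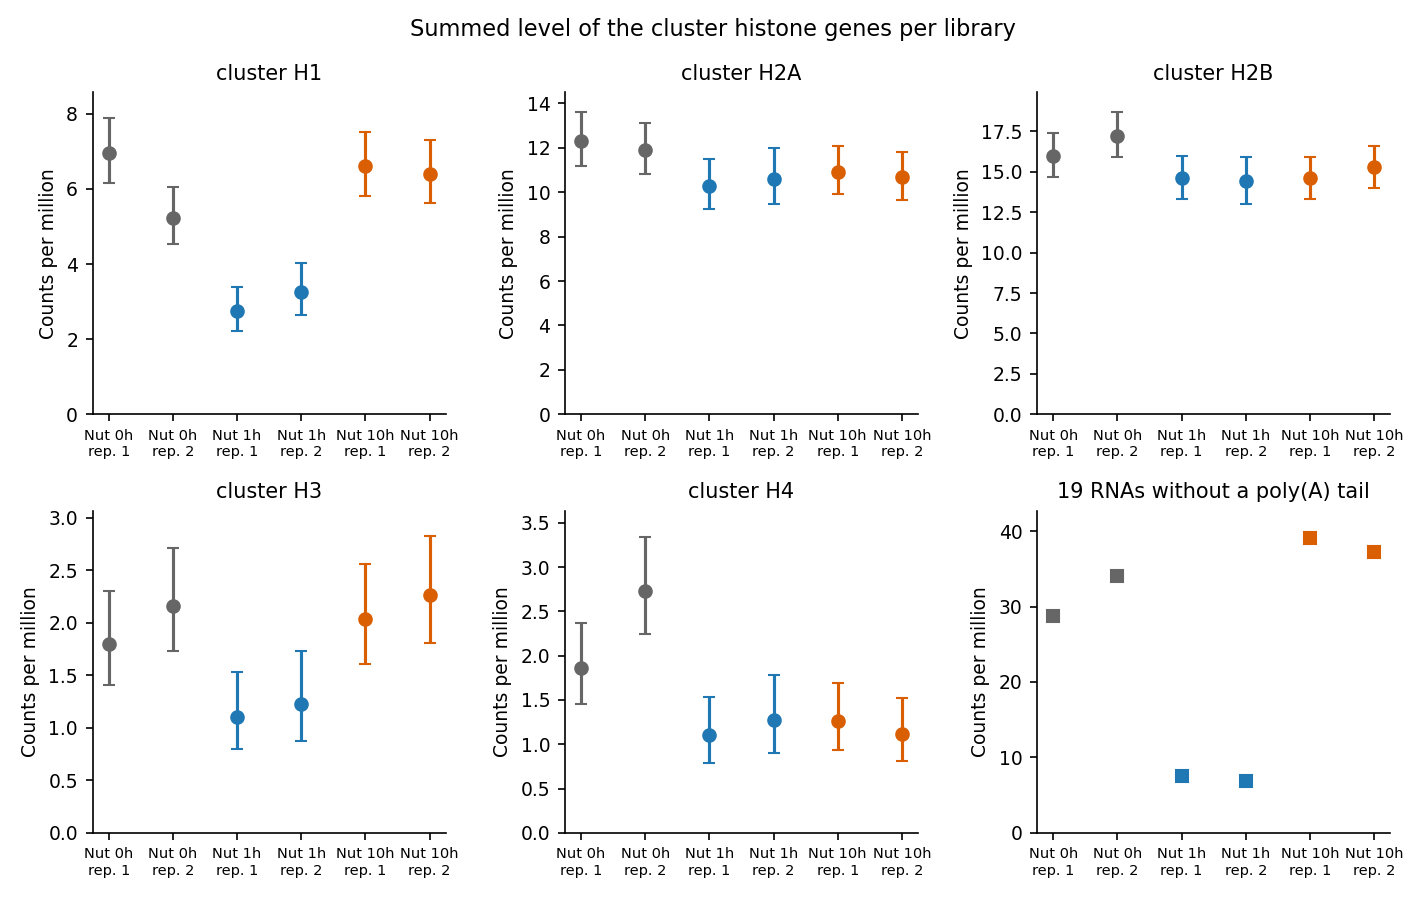
CPM summed over the cluster genes of each class in each library (bars: 95% Wilson intervals, counting error only), and over 19 RNAs without a poly(A) tail (squares). H1, H3 and the RNAs without a poly(A) tail are lowest after 1 h and higher after 10 h (for H1 and H3 up to the vehicle level only with HIST1H1C and HIST1H3E), H4 lies below its vehicle libraries at both times, which after 1 h rests on HIST1H4C, and H2A and H2B move little.

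RNAs without a poly(A) tail were also lowest after 1 h. Their sum was 28.7 and 34.0 CPM with vehicle, 7.53 and 6.83 after 1 h, and 39.1 and 37.3 after 10 h. Of 19 listed, 8 were tested, and 6 of these fell after 1 h (median log2 fold change -1.64), against 32.3% of all tested genes, and 7 rose between 1 h and 10 h (median 2.25), against 34.2%. In the GC fit 4 fell after 1 h, against 25.0% of all tested genes. RN7SL1, the RNA of the signal recognition particle, had 381 and 422 counts, then 93 and 64, then 445 and 441. TERC, the RNA of telomerase, chosen like RN7SL1 after its values were seen, had 80 and 74, then 6 and 4, then 162 and 168. The share of such RNA in a library thus differed between the conditions, and its part in the values of the cluster genes after 1 h was not tested.

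Among genes that transcribe histone genes or process their mRNA, most calls were increases after 1 h and decreases after 10 h. Of 24 listed genes (all tested), 12 rose and 5 fell after 1 h, or 50% and 20.8% against 34.5% and 32.3% of all tested genes, with a median of 0.35 (0.16 in the GC fit). After 10 h, 2 rose and 13 fell, or 8.33% and 54.2% against 14.1% and 14.9%, with a median of -0.32. SLBP had 5760 and 5474 normalized counts with vehicle, 4969 and 5228 after 1 h, and 2351 and 2187 after 10 h. Its log2 fold change was -0.14 after 1 h (SE 0.09, edgeR adjusted p = 0.187; -0.26 and called lower in the GC fit) and -1.31 after 10 h (SE 0.09, edgeR adjusted p = 1.13e-07), a 2.48-fold decrease. NPAT, the coactivator that gathers at histone clusters in S phase, had 733 and 891, then 1519 and 1431, then 455 and 515 normalized counts. It rose 1.82-fold after 1 h (edgeR adjusted p = 1.54e-05) and was 1.67-fold lower after 10 h (edgeR adjusted p = 0.000313). CASP8AP2, which encodes the processing factor FLASH, had the largest rise of the list after 1 h (log2 1.22, SE 0.10) and was at -1.14 (SE 0.10) after 10 h. CCNE2, whose product cyclin E activates the kinase that phosphorylates NPAT, had the largest fall after 10 h, at -2.55 (SE 0.16). The scaffold gene SYMPK had the largest fall after 1 h (log2 -0.92, SE 0.11), of which the GC fit left -0.47. ZCCHC6, a uridylyltransferase that tags histone mRNA for decay, was 1 of the 2 genes that rose after 10 h (log2 0.42, SE 0.13, edgeR adjusted p = 0.0247), a call lost without the first Nut 0h library, the second Nut 10h library or either Nut 1h library. By the GC fit the early values of NPAT and CASP8AP2 were 0.22 and 0.57, still called.

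Most listed histone chaperones fell after 10 h. Of 30 listed genes of chaperones and deposition (all tested), 12 rose and 10 fell after 1 h, or 40% and 33.3%, near the 34.5% and 32.3% of all tested genes. In the GC fit 11 rose and 7 fell, or 36.7% and 23.3%, against 23.8% and 25.0%. After 10 h 19 fell, or 63.3% against 14.9% of all tested genes, and 11 did not pass (median -0.49). HJURP, the chaperone of the centromeric variant CENP-A, fell most after 10 h, from 3234 and 2837 to 622 and 602 normalized counts (log2 -2.31, SE 0.10, edgeR adjusted p = 2.31e-09). ANP32E, which removes H2A.Z from nucleosomes, had 3509 and 3746 normalized counts with vehicle, 10443 and 9994 after 1 h, and 2184 and 2527 after 10 h. It had the largest rise of the list after 1 h (log2 1.49, SE 0.10, edgeR adjusted p = 8.67e-08), and the GC fit gave 0.79. TONSL, which reads new histone H4 behind the replication fork, had the largest fall after 1 h (log2 -1.30, SE 0.11), and the GC fit gave -0.39. Of 42 listed S-phase genes, 28 rose and 6 fell after 1 h, against 34.5% and 32.3% of all tested genes, and in the GC fit 19 rose and 5 fell, against 23.8% and 25.0%. In this list 41 fell after 10 h (median -1.39), against 14.9% of all tested genes, and their sum went from 6334 and 6380 CPM with vehicle to 7156 and 7330 after 1 h and 2678 and 2639 after 10 h. This list shares SLBP, CCNE2 and CASP8AP2 with the processing list and NASP, MCM2 and CHAF1B with the chaperone list. The summed cluster genes, for comparison, were at 39.0 and 39.3 CPM with vehicle, 29.8 and 30.8 after 1 h, and 35.4 and 35.7 after 10 h.

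**Figure D5:**
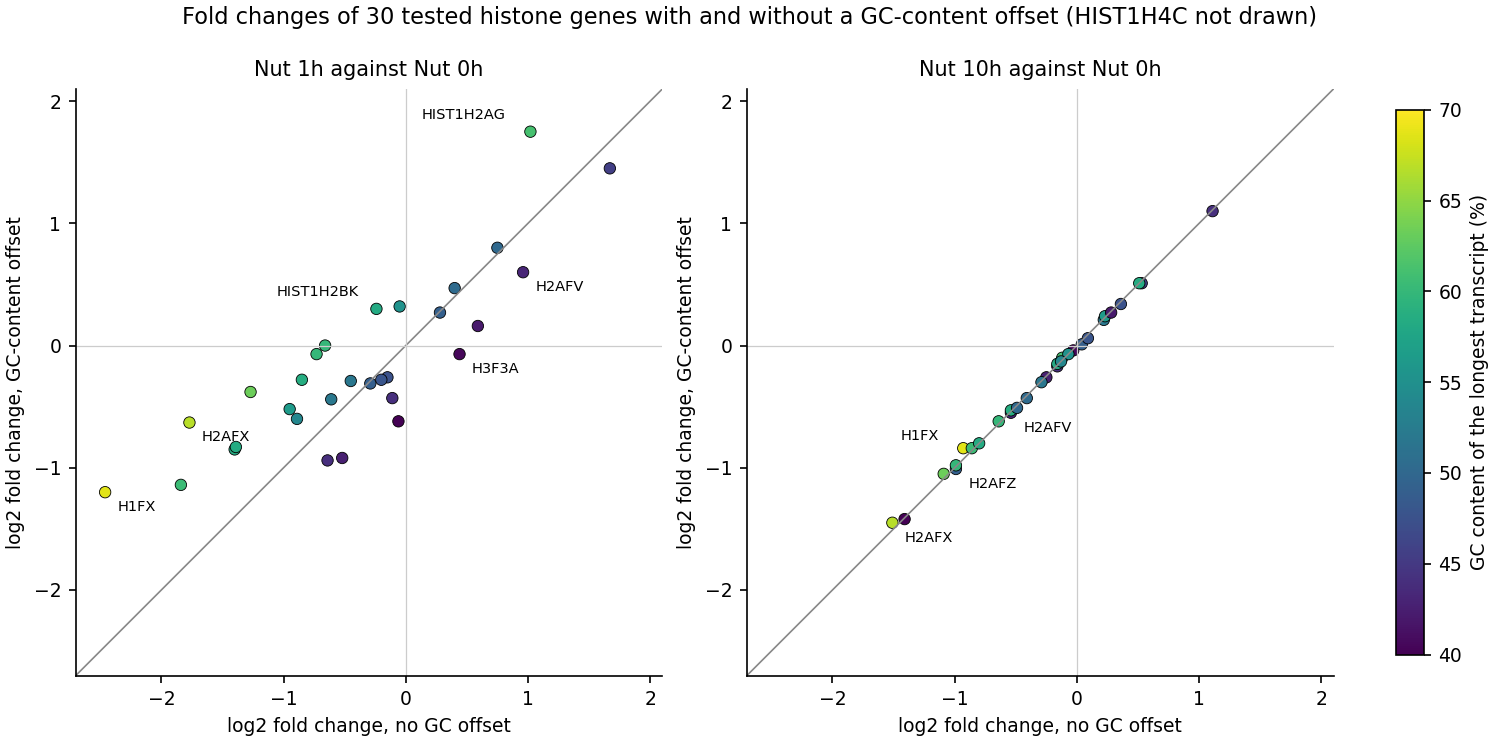
Log2 fold changes of 30 tested cluster and variant genes without (horizontal) and with (vertical) the GC-content offset, after 1 h (left) and after 10 h (right), coloured by the GC content of the longest transcript. On the left H1FX and H2AFX move from -2.46 and -1.77 to -1.20 and -0.63 and H3F3A and HIST1H2BK are among those that cross 0, whereas on the right the points lie close to the diagonal (HIST1H4C is not drawn).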

How the data were processed

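RNA-seq reads of 6 HCT116 libraries (3 conditions, 2 biological replicates each) were counted per gene by the authors and deposited as a matrix of raw counts. The submitters' processing notes name Trim Galore 0.6.6, FastQC, MultiQC, STAR 2.7.0f, Subread 2.0.0, DESeq2 1.36.0 and the build GRCh37. RNA selection, strand setting and the treatment of multimapping reads are not given in the sources used here. A further deposited table holds the authors' fold changes and p-values, of which no value was used.

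The counts were tested in R 4.3.3 with edgeR 4.0.16 (TMM, filterByExpr, quasi-likelihood test, condition as the only term, all 6 libraries, 3 residual degrees of freedom), with Benjamini-Hochberg adjustment over 16565 genes and calls at 0.05. Each F statistic with its fold change gave the standard error. Counts were normalized by dividing through the TMM-scaled library size relative to the mean over libraries. GC content and length came from the longest GENCODE transcript on GRCh37, and 97.4% of tested genes had a value. The GC fit added a loess trend (span 0.4) of each library as an offset.

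Named genes were all tested variants, the 2 cluster genes with most counts in each class, the largest cluster changes where the mean normalized count reached 100, SLBP, NPAT, and the largest rise and fall against Nut 0h in 2 lists. Any other gene named was picked once its values were known. The members and lists were chosen with earlier results of these data known. Alternatives were other normalizations and filters, DESeq2 1.42.0, a replicate block, only 2 conditions in the fit, GC-content and length offsets, and leaving out each library. The pipeline was tested on simulated data. Intervals and limits cover counting error only, since reads carry no molecular identifiers. Reads of near-identical and overlapping genes are uncertain.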

Additional observations from a re-analysis of the deposited data

Results flagged for a closer look

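H2AFV, H2AFZ and H3F3B were called higher after 1 h and lower after 10 h of Nutlin-3a, that is, in opposite directions against the same vehicle libraries. Genes with opposite calls differ between both times by construction, so the direct difference is a description and adds no support. The log2 fold change of Nut 10h against Nut 1h was -1.51 for H2AFV, -1.27 for H2AFZ and -0.81 for H3F3B (SE 0.09 each). In the GC fit these were -1.15, -1.28 and -0.90.

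Among the pseudogene symbols left out of the members, 2 copies of H3F3A carried a signal after 1 h. H3F3AP6 had 99.5 and 110 normalized counts with vehicle, 416 and 401 after 1 h, and 121 and 152 after 10 h. It rose by 1.96 on the log2 scale after 1 h (SE 0.15, edgeR adjusted p = 2.2e-07). H3F3AP4 had 696 and 830, then 1382 and 1305, then 690 and 846 normalized counts, with 0.82 after 1 h (SE 0.12, edgeR adjusted p = 4.09e-05). Both stayed higher in the GC fit, at 2.09 and 0.96. The symbols mark both as pseudogenes of H3F3A, and how reads shared with that gene were counted is not given in the sources used here.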

How the results depend on the processing

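Of 114 log2 fold changes of named genes, 113 kept their call (and, where called, their direction) with DESeq2 size factors, 112 with upper-quartile normalization, 110 with no filter, 105 in DESeq2, 109 with a length offset and 95 in the GC fit, and 102 to 108 when 1 library was left out. The replicate numbers are not stated to pair libraries, and deviations of same-numbered libraries correlated at -0.309, 0.446 and -0.279. The replicate block gave 7 higher and 11 lower members at 1 h, 0 and 8 at 10 h, and 6 and 7 between both times, and changed no call of a named gene. A block with the Nut 1h numbers crossed, added after seeing the data, gave 7 and 13, 2 and 13, and 12 and 8. Where the value was called with or without the alternative, directions that turned did so in the GC fit. The value with the block added follows each in brackets: H2AFX -0.82 (-0.83), H2AFY 0.26 (0.25), H3F3A 0.03 (0.03), HIST1H2BK -0.45 (-0.46) and ZCCHC6 0.02 (0.01) between both times, and H3F3A -0.07 (-0.07) and HIST1H2BK 0.30 (0.30) at 1 h. Members higher at 10 h numbered 1 with upper-quartile normalization or a length offset and 2 in the GC fit. Members lower at 10 h numbered 5 in DESeq2. With an absolute log2 fold change of at least 1 asked for as well, 2 members were higher and 6 lower at 1 h, and 3 lower at 10 h. Leaving out 1 library gave 4 to 7 higher at 1 h, 4 to 10 lower at 10 h (4 without the second Nut 10h library) and 5 to 12 higher between both times (12 without the second Nut 10h library). The causes were not tested. Apart from the GC fit, shares of all tested genes are not given for these alternatives. The member counts under them show how calls moved and are not read against a background. Low counts limit what can be said of the cluster genes: 63 of 75 had under 100 counts over the 6 libraries.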
